A study of Mus musculus with 6 samples.

Results

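The tetraspanins are a family of small membrane proteins that cross the membrane 4 times and gather integrins, proteases and each other into patches of the cell surface and of endosomes. CD63, the protein by which the liver cells of this series were sorted, is a member of the family. Genes were taken as members if a probe's transcript accession led to a symbol of the form Tspan plus a number, or to Cd9, Cd37, Cd53, Cd63, Cd81, Cd82, Cd151, Upk1a, Upk1b, Prph2 or Rom1. This gave 31 genes with 42 probes, of 20659 genes and 27234 probes that had a name. The choice rests on names and not on signal.

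Some tetraspanins hold integrins in place (Cd9, Cd81, Cd82, Cd151), and CD9, CD63 and CD81 are abundant in exosomes, the vesicles that cells release from late endosomes. The TspanC8 members (Tspan5, Tspan10, Tspan14, Tspan15, Tspan17 and Tspan33) carry the protease ADAM10 out of the endoplasmic reticulum and steer it toward its substrates. The uroplakins Upk1a and Upk1b build the surface plaques of the bladder lining, Prph2 and Rom1 shape the discs of photoreceptors, and Cd37, Cd53 and Tspan32 are known mainly from leukocytes.

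The series holds 6 one-colour arrays of cultured CD63+ cells from adult mouse liver, 3 from livers with DDC-induced injury and 3 from livers without injury. DDC is a porphyrinogenic compound that causes cholestatic liver injury. Both groups had been cultured with serum, HGF, EGF, ITS, dexamethasone and nicotinamide. The labels add VEGF and bFGF for cultures P6, P7 and P9, names that match no sample title. The labels give no strain, age or passage, and the series speaks of cell lines. The values are therefore those of cultures and not of freshly sorted cells.

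Over 137 bright probes printed repeatedly on each array, a chi-square test found no difference beyond spot noise between no-injury replicates 1 and 3 (p = 0.205, spread 1.05 times that noise), unlike every other pair within a group, and their mean stood for 1 sample. With the noise pooled over the 137 probes that pair did differ (chi-square 181.4 on 136 degrees of freedom, against 149.4 with each probe's own noise). The spread of no-injury replicate 2 from replicates 1 and 3 was 1.5 and 2.05 times the noise. Between injury arrays it was 4.9 to 18.6 times, so all 3 no-injury arrays lay much closer together. The comparison is thus of 3 DDC injury samples with 2 no-injury samples, and its p-values measure the spread between these samples, which may be technical. Each of 3 scans held arrays of 1 group only, so scan and group cannot be told apart. The scan of DDC injury replicate 1 fell on an earlier day than those of the remaining 5 arrays, so any value given without that replicate is also a value within 1 scan day. The array's 75th percentile, to which all levels here are relative on a log2 scale, lay between 1441 and 2271 intensity units, between 65.0% and 74.8% of spots were well above background, and none was saturated. The number of arrays limits the precision. The defining biliary marker Krt19 and the mesothelial marker Msln were well above background on all 6 arrays, as were Ptprc of leukocytes, Pecam1 of endothelium and Epcam. Alb of hepatocytes was so on 2 of 3 DDC injury and all no-injury arrays, and Des of stellate cells on none. The levels of Krt19 and Msln ran from 3.39 to 4.80. Those of Ptprc ran from -6.69 to -4.20, of Pecam1 from -4.24 to -2.81 and of Epcam from -5.85 to -2.73. By whole lists, 8 of 12 leukocyte, 4 of 9 endothelial and 3 of 9 stellate cell and myofibroblast markers (Acta2, Col1a1 and Dcn) were well above background on all 6 arrays.

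Most tetraspanins were detected. On all 6 arrays 27 of the 31 genes were well above background (87.1%, against 65.1% of all named genes). Prph2 and Tspan10 were well above background on no array, Tspan11 on 1 and Tspan1 on 3. The plot of levels by array shows how closely the no-injury arrays lay together and how many members overlapped between the groups. Probes differ in brightness for reasons of their own, so its rows cannot be ranked against each other.

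**Figure D1:**
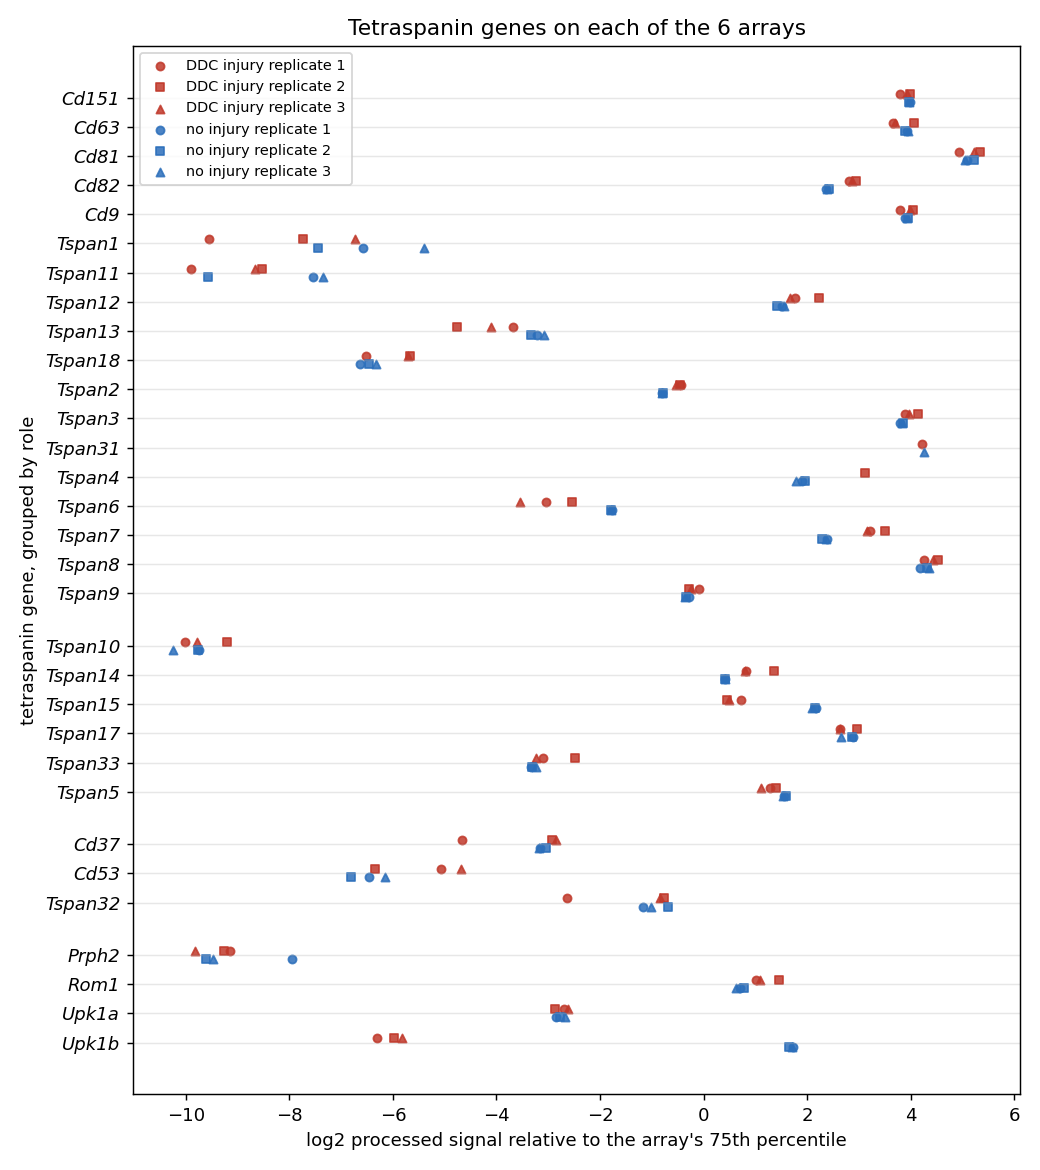
Log2 processed signal of the 31 tetraspanin genes relative to the array's 75th percentile (x axis), with 1 row per gene grouped by role and 1 point per array (red, DDC injury; blue, no injury; shapes are replicates). Upk1b lies between -6.32 and -5.83 on the DDC injury arrays and between 1.66 and 1.72 on the no-injury arrays, and missing points are spots marked as non-uniform.

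Of 25 members tested, Cd63 left aside, 2 rose and 3 fell after DDC injury, while 20 missed the threshold (limma, adjusted p under 0.05 over 15618 genes). Among all genes tested 17.7% rose and 15.8% fell, together 33.4%, so the members' share of 20% was no higher than that of the array as a whole. The members' median difference was 0.05 on the log2 scale (all genes, -0.07), and the median size of their difference, whatever its sign, was 0.41 (all genes, 0.52). The uroplakin gene Upk1b, the TspanC8 gene Tspan15 and Tspan6 fell, and Tspan7 and Cd82 rose. Lower values were also frequent among markers of biliary and progenitor cells, of which 5 of 10 tested fell and none rose (summed level 61.2 to 66.3 times the 75th percentile in the injury group, 83.5 to 86.8 in the no-injury group), and of hepatocytes, of which 6 of 10 fell and 1 rose (37.6 to 46.4 against 46.1 to 51.2). Without the brightest marker of each list, Spp1 and Apob, these sums were 27.2 to 33.7 against 46.1 to 47.8 and 11.1 to 17.7 against 29.8 to 34.1. Much of the gap in the hepatocyte sum without Apob is the signal of Ttr. Its log2 levels were -0.20, 1.32 and -0.34 on the injury arrays and 3.96, 4.27 and 4.29 on the no-injury arrays. All 10 biliary and 5 of the hepatocyte markers were well above background on all 6 arrays. Their part in the members' differences was not tested. The bulk arrays cannot tell fewer cells that express a gene from less RNA per cell.

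**Figure D2:**
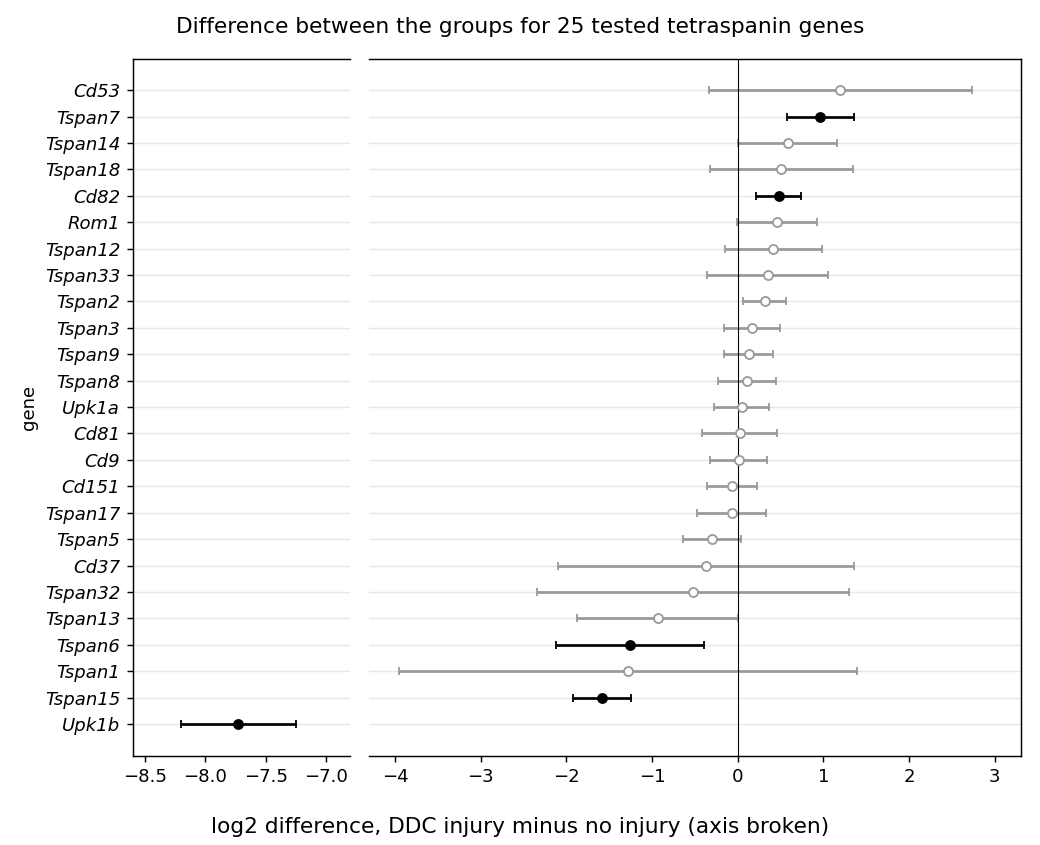
Log2 difference between DDC injury and no injury (x axis, broken between -6.8 and -4.3) for the 25 tested tetraspanin genes (rows), with 95% confidence intervals of the limma fit. Filled black points passed the threshold. Upk1b stands alone at -7.73, and Cd9, Cd81 and Cd151 lie within 0.07 of 0.

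Among the uroplakin and retinal tetraspanins, Upk1b had the largest difference. Its level relative to the 75th percentile was -6.32, -5.97 and -5.83 on DDC injury arrays 1 to 3 and 1.72, 1.66 and 1.70 on the no-injury arrays. In intensity units these are 28.5, 22.9 and 27.6 against 6790, 6964 and 6959. All 3 injury arrays were low and the groups were far apart. The log2 level of Upk1b fell by 7.73 ± 0.18 (SE), or 212-fold, with n = 3 and 2 samples and a limma adjusted p of 0.000587. The only Upk1b probe, A_51_P113195, was printed 10 times on each array, so the signal can be checked within arrays. Single spots ranged from -6.52 to -5.65 on the DDC injury arrays and from 1.52 to 1.83 on the no-injury arrays. Upk1b passed the threshold in 19 of 19 fits with other processing or fewer arrays (difference -7.83 to -5.92), and was the only member to do so with the 3 no-injury arrays counted as 1 sample (adjusted p = 0.0271 in limma, where 3.51% of all genes passed, 2.19% higher and 1.32% lower).

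The other members of this group did not pass the test. Upk1a, the uroplakin that pairs with UPK2 in bladder, lay at -2.69, -2.87 and -2.62 in the injury group and -2.85, -2.78 and -2.68 in the no-injury group, with overlapping groups and a difference of 0.05 (95% interval -0.27 to 0.36). Rom1 was measured at 1.01, 1.45 and 1.09 against 0.70, 0.78 and 0.63. The injury arrays were all above the others, but the difference of 0.46 ± 0.17 (SE) had an adjusted p of 0.114 in limma. Prph2 was below background.

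UPK1B pairs with UPK3A or UPK3B at the membrane. Of 4 uroplakin genes outside the tetraspanin family, 2 were tested. Upk3b, which is also a marker of mesothelium, fell: it was well above background on 3 no-injury arrays (-4.88, -5.18 and -4.70) and on no DDC injury array, and was at least 5.47-fold lower (limma adjusted p = 0.0264). This bound sets the no-injury mean against the lowest signal well above background on each injury array, or the probe's own signal where that is higher. Upk3bl was at 0.91 ± 0.28 (adjusted p = 0.0734), Upk3a was well above background on 2 of 6 arrays and Upk2 on none. Mesothelial markers moved both ways. Of 6 tested, Wt1 and Upk3b fell, Podxl rose and 3 did not pass. Those 3 were Msln at 0.15 (adjusted p = 0.467), Bnc1 at -0.54 (adjusted p = 0.058) and Gpm6a at -5.02 (adjusted p = 0.0538). Wt1 was well above background on 1 of 3 injury arrays and on all 3 no-injury arrays. Lrrn4, not tested, was well above background on 2 injury arrays and on no no-injury array. Of the 7 markers with a probe 3 were well above background on all 6 arrays, and the summed level of the 7 was 24.1 to 29.4 times the 75th percentile in the injury group and 24.5 to 26.9 in the no-injury group. Msln made up 88.1% to 94.8% of it, and the other 6 markers summed to 1.54 to 1.89 and 2.89 to 2.92. Their part in the fall of Upk1b was not tested.

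Of the TspanC8 genes, 1 of 5 tested fell and none rose in limma, and 2 had an unadjusted p under 0.05, as did 45.2% of all genes tested. Tspan15, whose partner ADAM10 cleaves N-cadherin among other surface proteins, lay at 0.72, 0.45 and 0.49 on the injury arrays and at 2.18, 2.15 and 2.09 on the no-injury arrays. The groups did not overlap. The log2 level of Tspan15 fell by 1.59 ± 0.13 (SE), or 3.0-fold, with a limma adjusted p of 0.00313. It did not pass with the 3 no-injury arrays counted as 1 sample (adjusted p = 0.0617) or without no-injury replicate 2 (adjusted p = 0.0615), while the difference stayed between -1.67 and -1.28 in 19 fits.

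The other TspanC8 genes did not pass. Tspan14 was at 0.83, 1.36 and 0.80 in the injury group and at 0.42, 0.41 and 0.42 in the no-injury group. Its injury values were all higher, DDC injury replicate 2 most of all, and the difference of 0.58 ± 0.22 (SE) did not pass (limma adjusted p = 0.109). Without that array it was 0.40 and passed (adjusted p = 0.0218). Tspan5 was lower on each injury array (1.29, 1.40 and 1.11 against 1.55, 1.59 and 1.54) without passing (-0.31 ± 0.13, adjusted p = 0.138). A dimmer second probe of Tspan5 differed by 0.21. Tspan17 read 2.64, 2.97 and 2.64 against 2.89, 2.87 and 2.66, a difference of -0.07 ± 0.15. Tspan33 read -3.09, -2.49 and -3.25 against -3.32, -3.31 and -3.23, a difference of 0.35 ± 0.26. Both overlapped between the groups, and Tspan10 was below background.

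Tspan7 had the largest rise of the members that passed. It is known for its role in synapses. Its levels were 3.22, 3.51 and 3.16 on the DDC injury arrays and 2.39, 2.29 and 2.37 on the no-injury arrays. The groups did not overlap. Tspan7 rose by 0.96 ± 0.15 (SE, 1.95-fold, limma adjusted p = 0.013) and did not pass with the 3 no-injury arrays counted as 1 sample (adjusted p = 0.13) or without no-injury replicate 2 (adjusted p = 0.132).

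Among members with an entry in the RefSeq promoter table, Tspan15 had the largest fall and Tspan7 the largest rise past the threshold. Their start regions are shown so that the opposite movers can be compared. Each runs 5′ to 3′ on the gene's strand from 250 bases before to 50 bases after the annotated start, in build GRCm38.p6, at chr10:62231169-62231468 (minus strand) for Tspan15 and chrX:10484866-10485165 (plus strand) for Tspan7. Capitals mark matches on either strand to GGGCGG, the GC box bound by Sp factors, to CCAAT or to TATAAA, and no marked match overlaps another.
Tspan15: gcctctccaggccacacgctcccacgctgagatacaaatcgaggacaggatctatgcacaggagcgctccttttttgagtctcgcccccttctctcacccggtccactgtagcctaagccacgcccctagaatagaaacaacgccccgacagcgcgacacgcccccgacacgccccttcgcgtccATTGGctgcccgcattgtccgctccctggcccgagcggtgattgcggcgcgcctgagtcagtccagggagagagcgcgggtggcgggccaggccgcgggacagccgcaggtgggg
Tspan7: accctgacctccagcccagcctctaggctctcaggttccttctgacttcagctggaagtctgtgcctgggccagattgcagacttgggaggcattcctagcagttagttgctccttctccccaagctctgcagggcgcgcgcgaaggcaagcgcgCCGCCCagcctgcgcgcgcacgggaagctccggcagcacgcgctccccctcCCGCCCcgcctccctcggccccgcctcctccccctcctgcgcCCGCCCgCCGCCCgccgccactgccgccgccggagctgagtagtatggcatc
The Tspan15 window holds 1 CCAAT match and no GC box, and the Tspan7 window holds 4 GC boxes and no CCAAT. Neither has TATAAA. Among 32851 windows of 300 bases in the table, GGGCGG occurred in 35.7%, CCAAT in 37.4% and TATAAA in 13.6%, and among 39 windows of tetraspanin genes they occurred in 17, 12 and 2. The table holds 29 of the 31 members. These are matches of letters only. Tspan7 lies on the X chromosome, as does Tspan6, which changed the other way.

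Cd82, a metastasis suppressor that slows integrin-dependent migration, rose by a smaller step. The brightest of its 3 probes read 2.81, 2.95 and 2.86 on the injury arrays and 2.37, 2.41 and 2.39 on the no-injury arrays. The groups did not overlap, and the gene rose by 0.48 ± 0.10 (SE, 1.39-fold, limma adjusted p = 0.0272). The other probes of Cd82 were dimmer and differed more. One read 0.85, 0.71 and 0.77 against 0.06, -0.03 and 0.12 and rose by 0.75 (limma adjusted p = 0.0102 over all probes tested, of which 35% passed), and the other read -0.10, -0.30 and -0.25 against -1.26, -1.32 and -1.26 and rose by 1.08 (adjusted p = 0.00502). The mean of the 3 probes rose by 0.77. All 3 probes passed in the same direction and differed in size. The gene did not pass without DDC injury replicate 3 (adjusted p = 0.0738), without no-injury replicate 2 (adjusted p = 0.206), with no filter on dim probes (adjusted p = 0.0608) or with the 3 no-injury arrays counted as 1 sample (adjusted p = 0.22). Tspan18 is the next coding gene to Cd82 in RefSeq, with none between them. It was at -6.52, -5.68 and -5.70 in the injury group and at -6.64, -6.47 and -6.34 in the no-injury group. DDC injury replicate 1 lay among the no-injury values, and the difference of 0.51 ± 0.31 did not pass (adjusted p = 0.279). Without that array Tspan18 differed by 0.79 and passed (adjusted p = 0.0122). Its second probe, well above background on 1 array, differed by -0.78, and the mean of both by -0.13, so its direction rests on the brighter probe.

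Tspan6, linked to the sorting of membrane proteins in endosomes, lay at -3.04, -2.55 and -3.55 on the injury arrays against -1.76, -1.79 and -1.79. The injury arrays were all lower and spread more widely. Tspan6 fell by 1.26 ± 0.32 (SE, 2.40-fold lower, limma adjusted p = 0.0453) and passed in 12 of 19 fits, with a difference of -1.51 to -1.0. It missed the threshold without DDC injury replicate 1 (adjusted p = 0.0703), without DDC injury replicate 3 (0.0614), without no-injury replicate 2 (0.214), with the 3 no-injury arrays counted as 1 sample (0.22), with quantile normalization (0.0729), with the scan as a random block (0.0738) and with no filter on dim probes (0.0668). Tspan13 was also lower on every injury array (-3.69, -4.76 and -4.11 against -3.22, -3.34 and -3.08). Its difference of -0.94 ± 0.35 did not pass (adjusted p = 0.112), and passed in 4 of 19 fits.

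**Figure D3:**
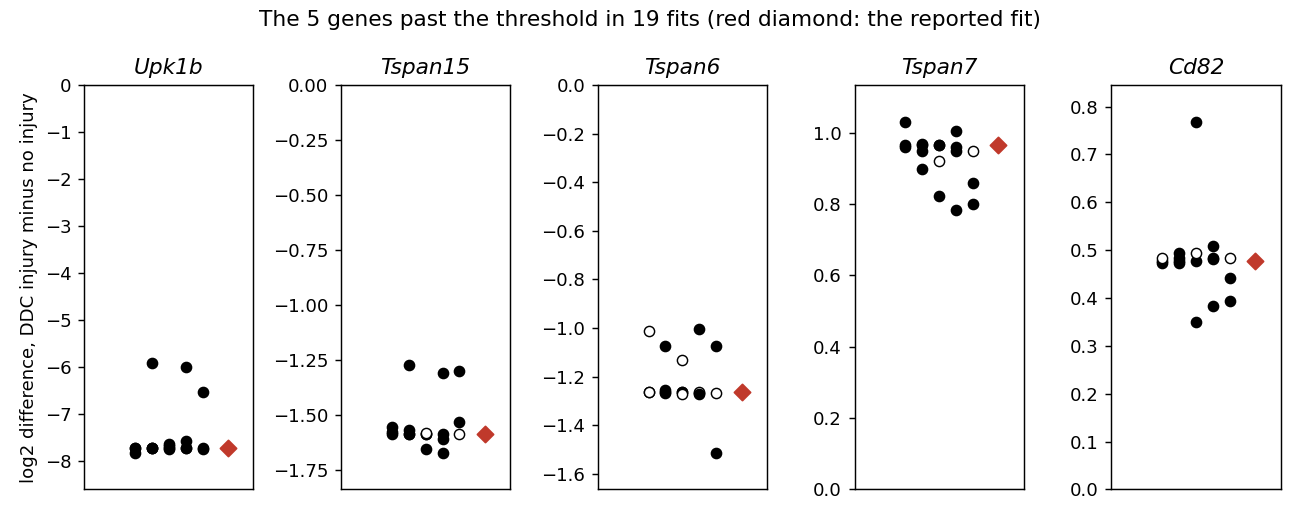
Log2 difference between DDC injury and no injury (y axis, a scale for each panel, all including 0) of the 5 genes past the threshold in 19 fits. The red diamond is the reported fit, filled circles are other fits past the threshold and open circles fits that missed it. Upk1b passed in 19, Tspan15 and Tspan7 in 17, Cd82 in 15 and Tspan6 in 12.

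The tetraspanins best known from exosomes and integrin complexes did not pass the test. Cd9 read 3.79, 4.04 and 3.99 on the injury arrays and 3.90, 3.95 and 3.92 on the others, with overlapping groups and a difference of 0.01 (95% interval -0.32 to 0.34). Cd81, which binds integrins and is abundant in exosomes, read 4.94, 5.34 and 5.22 against 5.08, 5.23 and 5.05. Its groups overlapped too, with a difference of 0.02 (95% interval -0.42 to 0.46). Cd151, which binds laminin-binding integrins, read 3.80, 4.0 and 3.93 against 3.99, 3.98 and 3.97 and differed by -0.07 (95% interval -0.36 to 0.22). These intervals bound the differences but do not show that the levels were equal. Tspan8, a tetraspanin of epithelial exosomes, read 4.25, 4.53 and 4.44 against 4.18, 4.32 and 4.36 and differed by 0.11 (95% interval -0.23 to 0.44). Tspan3 read 3.89, 4.15 and 3.97 against 3.79, 3.85 and 3.84, a difference of 0.17 (95% interval -0.16 to 0.50). The groups overlapped for Tspan8 and lay just apart for Tspan3. Cd63 itself, by which the cells were chosen, read 3.65, 4.07 and 3.70 against 3.94, 3.88 and 3.95. Its values are given as a description.

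Tspan2, Tspan12 and Tspan4 were higher on each injury array without passing. Tspan2, known from oligodendrocytes, read -0.44, -0.45 and -0.54 against -0.80, -0.78 and -0.79. The difference of 0.31 ± 0.09 (SE) had an adjusted p of 0.0682, and its second probe differed by 0.58. Tspan12, which helps the receptor FZD4 respond to Norrin, read 1.77, 2.23 and 1.66 against 1.52, 1.42 and 1.55, a difference of 0.41 ± 0.21 (adjusted p = 0.207). For Tspan4, a protein of migrasomes, the spots of DDC injury replicates 1 and 3 were marked as non-uniform, which left it untested. With marked spots kept it read 2.33, 3.12 and 2.47 against 1.90, 1.96 and 1.79, and the difference of 0.74 ± 0.28 did not pass (adjusted p = 0.114, where 33.4% of all genes passed). Tspan31 lost 4 spots in this way and differed by -0.20 with them kept (adjusted p = 0.283). Tspan9 read -0.10, -0.27 and -0.23 against -0.27, -0.33 and -0.36, and its difference of 0.12 did not pass (adjusted p = 0.423). Tspan1 differed by -1.29 ± 0.99 (adjusted p = 0.383).

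None of the 3 leukocyte tetraspanins passed in limma, and none had an unadjusted p under 0.05. Cd37 read -4.66, -2.92 and -2.85 in the injury group and -3.16, -3.04 and -3.17 in the no-injury group. Tspan32 read -2.64, -0.75 and -0.84 against -1.18, -0.68 and -1.01. Both were lowest on DDC injury replicate 1. The other injury arrays lay slightly above all no-injury arrays for Cd37 and among them for Tspan32. Without replicate 1 Cd37 differed by 0.22 (limma adjusted p = 0.192) in place of -0.37. The summed level of 12 leukocyte markers was also lowest on that array, at 3.06 times the 75th percentile against 6.61 and 3.84 on injury replicates 2 and 3 and 7.86 to 8.37 on the no-injury arrays. Cd14 made up 66% to 88.7% of the sum, and the other 11 markers summed to 0.346 on that array, 0.816 and 1.3 on the other injury arrays and 2.03 to 2.32 on the no-injury arrays. Itgam was the brightest of those 11 on the no-injury arrays, and much of their sum there is its signal. Its log2 levels were -2.68, -1.87 and -2.23 on the injury arrays and 0.31, 0.67 and 0.26 on the no-injury arrays. Of 11 tested markers 1 fell (Itgam) and none rose, 8 of 12 were well above background on all 6 arrays, and Laptm5 was so on 1. The fall of Itgam rests on its brightest probe. Its other probes differed by -0.64 and -0.31 without passing (limma adjusted p = 0.595 and 0.806 over all probes). Their part in these values was not tested. Cd53 read -5.06, -6.35 and -4.68 against -6.46, -6.81 and -6.15. Its difference of 1.19 ± 0.57 did not pass (adjusted p = 0.183), and did without DDC injury replicate 2 (1.69, adjusted p = 0.0231).

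The probes of Tspan32 disagreed. The brightest differed by -0.52 (adjusted p = 0.587 over all probes), the second by 1.05 (adjusted p = 0.0783) and the third by 1.43 (adjusted p = 0.0477). On the third probe the injury arrays read -6.98, -5.87 and -6.11 and the no-injury arrays -8.24, -7.62 and -7.50, and 4 of the 6 arrays were well above background. The brightest probe stayed below 0 in all fits run on it except without DDC injury replicate 1 (0.09, adjusted p = 0.725), and the mean of the 3 probes was at 0.65 (adjusted p = 0.348). No direction is therefore given for Tspan32. Its neighbour Cd81, with no coding gene between them, differed by 0.02. Cd151, Tspan17 and Tspan5 had second probes that did not pass either, with Tspan17's at -0.41 (adjusted p = 0.0765).

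**Figure D4:**
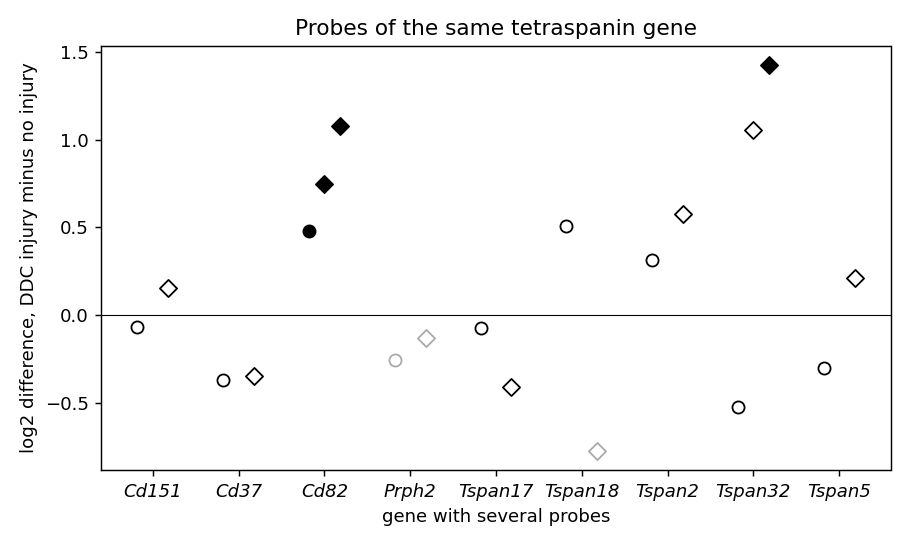
Log2 difference between DDC injury and no injury (y axis) for each probe of the tetraspanin genes with several probes (x axis). Circles are the brightest probe of a gene and diamonds its other probes, filled where the probe passed the threshold and grey where it was well above background on fewer than 3 arrays. All 3 Cd82 probes lie above 0, and those of Tspan32 run from -0.52 to 1.43.

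Genes that work with tetraspanins were grouped in 8 lists by what they do. Of 100 tested, 13 rose (13%, against 17.7% of all genes) and 24 fell (24%, against 15.8%). Among integrins and adhesion partners 6 of 24 rose and 3 fell, and the median log2 difference was 0.39. Itga2, an integrin chain for collagen, rose by 0.95 ± 0.11 (SE, limma adjusted p = 0.00743) and Itga5, the chain of the fibronectin receptor, by 1.1 ± 0.15 (adjusted p = 0.0095). Epcam, which CD9 and claudin-7 bind, fell by 2.58 ± 0.24 (adjusted p = 0.00425). Itgb4, the hemidesmosome chain that pairs with CD151-bound Itga6, read 1.90, 1.15 and 1.70 against 3.75, 3.65 and 3.76. The groups did not overlap, and Itgb4 fell by 2.12 ± 0.26 (adjusted p = 0.00787). Itga6 went the other way and rose by 1.09 ± 0.195 (adjusted p = 0.0191).

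In the list of ADAM10 and its Notch and surface substrates 1 of 16 rose and 6 fell, with a median of -0.49. Cxcl16, a membrane chemokine that ADAM10 sheds, read -1.77, -0.27 and -0.90 against 1.98, 1.97 and 1.98 and fell by 2.96 ± 0.48 (7.77-fold lower, limma adjusted p = 0.0147). Cx3cl1, the other membrane chemokine, fell by 1.12 ± 0.12 (adjusted p = 0.00597) and E-cadherin, Cdh1, by 0.97 ± 0.10 (adjusted p = 0.00549). Notch3 read -0.03, 0.58 and 0.14 against -2.54, -2.59 and -2.56, and rose by 2.80 ± 0.21 (6.95-fold, adjusted p = 0.00277). Adam10 itself, named here after its values were seen, read 3.08, 3.40 and 3.03 against 2.75, 2.63 and 2.66. Its injury arrays were all higher, with a difference of 0.50 ± 0.15 that did not pass (adjusted p = 0.0701).

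Of 28 genes of exosome formation and release 8 fell and 1 rose, with a median of -0.04. Among the 8, Vta1 and Chmp4c fell on their brighter probe only. Their dimmer probes differed by 0.13 and 0.05 (limma adjusted p = 0.469 and 0.866 over all probes). Rab27b, which did not pass on its brighter probe, differed by -1.62 on its dimmer one (limma adjusted p = 0.0133 over all probes). Sdcbp, the syntenin that links CD63 and syndecans to the ESCRT machinery, read 1.79, 2.07 and 1.80 against 3.06, 3.27 and 3.3 and fell by 1.34 ± 0.14 (2.53-fold lower, limma adjusted p = 0.00524), and its second probe fell by 0.77 (adjusted p = 0.0146). Smpd3, the neutral sphingomyelinase of vesicle budding, fell by 1.23 ± 0.13 (adjusted p = 0.00549) and the ESCRT ATPase Vps4a by 1.60 ± 0.23 (adjusted p = 0.0115). Arf6, a small GTPase of the syntenin route, rose by 0.66 ± 0.11 (adjusted p = 0.0169).

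Of 18 genes of late endosomes and lysosomes 2 rose and 4 fell, with a median of 0.02. Timp1, a secreted protease inhibitor that binds CD63 at the cell surface, read 1.88, 1.96 and 1.75 against -0.56, -0.61 and -0.58. The groups lay far apart, and Timp1 rose by 2.46 ± 0.11 (SE, 5.49-fold, limma adjusted p = 0.00106). It was the only partner gene past the threshold with the 3 no-injury arrays counted as 1 sample (adjusted p = 0.0334). The V-ATPase subunit Atp6v0d1 fell by 0.98 ± 0.10 (adjusted p = 0.00555), the lysosomal channel Mcoln1 by 0.70 ± 0.10 (adjusted p = 0.0107) and the cholesterol carrier Npc2 by 0.62 ± 0.10 (adjusted p = 0.0138).

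The small lists moved in part. Of the palmitoyltransferases, which attach lipid to tetraspanins, Zdhhc20 rose by 1.08 ± 0.12 (limma adjusted p = 0.00663) and Zdhhc6 by 0.39 ± 0.10 (adjusted p = 0.0438), Zdhhc4 fell by 0.72 ± 0.09 (adjusted p = 0.00918) and Zdhhc2 was at 0.39 (adjusted p = 0.18). Of the receptor complex around TSPAN12, Fzd4 fell by 0.81 ± 0.19 (adjusted p = 0.0367), Lrp6 rose by 0.54 ± 0.10 (adjusted p = 0.0223) and Lrp5 and Ctnnb1 did not pass. Among the L6 proteins, which resemble tetraspanins without belonging to them, none of 4 passed in limma and 1 had an unadjusted p under 0.05.

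**Figure D5:**
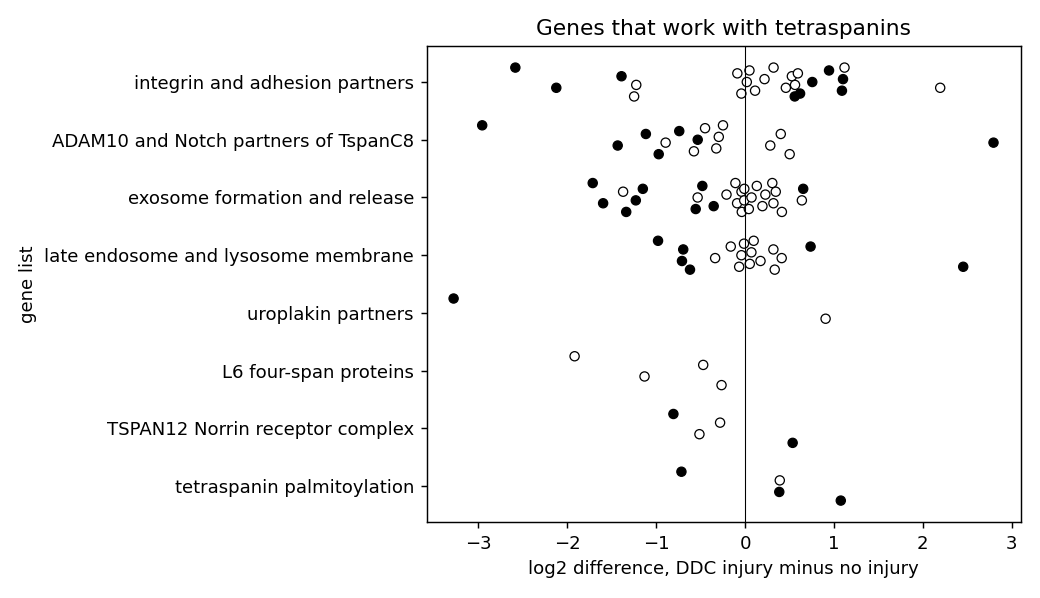
Log2 difference between DDC injury and no injury (x axis) for each tested gene of 8 lists of genes that work with or resemble tetraspanins (rows), filled where the gene passed the threshold. Heights within a row only separate the points. Cxcl16 lies at -2.96, Notch3 at 2.80 and Timp1 at 2.46.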

How the data were processed

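The scanner software, Feature Extraction 11.0.1.1 per the file headers, gave the intensity columns: the processed signal, background-subtracted and detrended, and the median spot and background signals. The deposited value table holds log2 values that the authors normalized to shared quantiles, with limma named in the submitters' processing notes without a version. Its start column and centring stay unknown (column medians 6.921 to 6.927).

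Levels are log2 processed signals from which each array's 75th percentile was subtracted, with no pseudocount. Control spots and spots marked as non-uniform or outlying were left out, and repeated spots averaged. Probes were named by transcript accession through RefSeq (GRCm38.p6). A gene was its brightest probe, tested if 3 or more arrays had it well above background and each group kept 2 samples. Groups were compared with limma 3.58.1 (R 4.3.3, two-sided, prior degrees of freedom 1.35, Benjamini-Hochberg over all genes), tested on simulated data. Any member could be named, and of each list the 4 genes lowest in adjusted p at most. Some list genes beyond these were named after their values were seen, among them Adam10, Itga6, Egfr, Vcam1, Vta1, Chmp4c, Rab27b and Lrrn4. Members and lists were chosen with earlier results of these data known. Keeping marked spots and testing probes singly were chosen after seeing the data. The other alternatives were normexp, quantile normalization, the deposited values, filters, probe means, the scan, the replicate block and arrays left out.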

Additional observations from a re-analysis of the deposited data

How the results depend on the processing

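When all 3 no-injury arrays stood for 1 sample, 342 genes rose and 206 fell in limma, and of the tetraspanins 0 rose and 1 fell (1 and 2 by unadjusted p under 0.05). Of the partner genes 1 rose and 0 fell (9 and 17 by unadjusted p). With all 6 arrays as 6 samples 3849 genes rose and 3625 fell. In that fit 5 tetraspanins and 27 partner genes rose, and 4 tetraspanins and 29 partner genes fell. Leaving out 1 array at a time gave 350 to 3692 genes higher and 165 to 3145 lower, 0 to 4 tetraspanins higher and 1 to 3 lower, and 1 to 30 partner genes higher and 0 to 27 lower. The low ends came without no-injury replicate 2, which leaves 1 no-injury sample assumed to vary like the injury group, and the high ends without DDC injury replicate 2. The scan as a random block gave 2297 higher and 2025 lower, with 2 tetraspanins each way. Without DDC injury replicate 3 the counts were 1728 and 1548, with 1 tetraspanin and 8 partner genes higher and 15 partner genes lower. With normexp and quantile normalization 6 tetraspanins rose and 5 fell (all genes, 2920 and 2888). With no filter on dim probes 1 rose and 2 fell (all genes, 2146 and 1852). The cause was not tested. Normexp with the 75th percentile moved the median difference of all genes from -0.068 to 0.071.

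Upk1b, Tspan15, Tspan6, Tspan7 and Cd82 kept their direction in all fits run. Tspan18 and Tspan17 missed the threshold in the reported fit and passed in 3 and 1 of 19 fits. Tspan18 was at 0.77 with quantile normalization (limma adjusted p = 0.0153). Tspan17 was at -0.46 with normexp and quantile normalization (limma adjusted p = 0.0492). Tspan13 likewise passed in 4 fits, Tspan14 in 3, Rom1, Tspan2 and Tspan5 in 2 each, and Tspan9 and Cd53 in 1 each. Tspan5 passed with the deposited values (-0.43, limma adjusted p = 0.0421). Tspan18 changed sign with the mean of its probes (-0.13). For Tspan17 that mean differed by 0.17, but its dimmer probe had no value on DDC injury replicate 1. The mean on that array thus rests on the brighter probe alone. Taken singly, both Tspan17 probes differed below 0 (-0.07 and -0.41), so no change of sign is read from their mean. The replicate numbers pair no samples by the labels. Deviations of same-numbered arrays correlated at 0.117, 0.018 and 0.121 over 15426 genes, and no-injury replicate 2 correlated slightly more with DDC injury replicate 3 (0.019). With the replicate block, 2839 genes rose and 2726 fell, with 2 tetraspanins higher and 4 lower, and 17 partner genes higher and 25 lower. Depth on arrays is signal over background, and members below background have no measured difference.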
